A study of Mus musculus with 12 samples.

Results

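The 10 genes described here encode regulators of the BCL-2 family, which set whether a cell opens its outer mitochondrial membrane and dies by apoptosis. They were named from their function and found by matching their symbols to the Ensembl mouse gene identifiers of the count tables, and all 10 were found among the 55536 identifiers listed. The libraries came from mouse embryonic fibroblasts (MEFs), connective tissue cells of the embryo grown in culture, with no genotype or strain given in the sources used here. Halofuginone (HF), an inhibitor of prolyl-tRNA synthetase, was given at 100 nM for 6 h in high-glucose DMEM with dialyzed serum, and control cells spent the same 6 h in that medium without the drug. Total RNA, fragmented by alkaline hydrolysis, and ribosome footprints (RPF), the RNA pieces that ribosomes protect from RNase I, were each sequenced from 3 control and 3 HF libraries, 12 libraries in 4 groups. Whether the libraries of a group stem from different cultures is not given, and p-values take in only how these libraries varied, and that variation could be technical.

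BCL-2 family proteins act in 3 roles. Survival members (Bcl2, Bcl2l1, which encodes BCL-XL, and Mcl1) hold back the pore-forming members Bax and Bak1, which permeabilize the outer mitochondrial membrane and release cytochrome c. BH3-only members (Bcl2l11, which encodes BIM, Pmaip1, which encodes NOXA, Bbc3, which encodes PUMA, Bid and Bad) sense damage or stress and either bind the survival members or activate the pore formers directly. When amino acids run short, uncharged tRNA activates the kinase GCN2, which phosphorylates eIF2 and slows most translation while a few messages, among them that of the transcription factor ATF4, are translated more. BH3-only genes are among the targets of stress-responsive factors such as p53, FOXO proteins and CHOP, the product of Ddit3.

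Promoter sequence was read for the members from RefSeq windows on GRCm38.p6 that run from 250 bases before a transcript start to 50 bases from it. Of the 10 members 9 had a window, 15 windows in all, among 32851 windows of the same 300 bases. Pmaip1 had none. Both strands were searched for 6 motifs. The forkhead core GTAAACA was held by 3.65% of all windows and by 2 member windows, those of Bcl2l11 and Bbc3. The ETS-type core CCGGAAG was held by 8.86% of windows and by 3 member windows, of Bcl2l1, Bcl2l11 and Mcl1. The p53 half-site was held by 8.36% of windows and by 1 member window, that of Bax. The composite ATF4 and CEBP motif TGATGNAA (3.97% of windows), the palindrome TGACGTCA (1.79%) and the CArG box (1.63%) were in none of the 15 member windows. The 3 stretches of 30 bases below are shown because they place the shared forkhead core of the 2 BH3-only genes, which differed in the direction of their RNA values, beside the ETS-type core of Mcl1. Capitals mark the motif, each stretch is on the plus strand, 5′ to 3′, and a match of letters is not evidence of binding. The start is that of the window's transcript. For Bbc3 and Mcl1 it lies inside the gene interval given below, so those stretches lie within the gene, while that of Bcl2l11 lies before its interval.
Bcl2l11, chr2:128125799-128125828, from -239 to -210 relative to the start: caagacactaggGTAAACAcgccggggtgg
Bbc3, chr7:16310082-16310111, from -179 to -150, with the motif on the opposite strand: gtctggcgggttTGTTTACaaacaatgggg
Mcl1, chr3:95658646-95658675, from -75 to -46: agagcgctccggCCGGAAGaggcgcggagt

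Total counts ran from 718096 to 1295434 in RNA control, 1017651 to 1697554 in RNA HF, 724609 to 2527791 in RPF control and 562794 to 1958356 in RPF HF libraries. The first principal component separated control from HF in each assay (66.0% of the variance in RNA and 64.9% in RPF). On the second component RNA control 2 stood apart from the other 2 controls, and RPF HF 2 and RPF HF 3 lay at opposite ends. All 9 fibroblast markers were detected in every group, with summed levels of 7790 to 8155 CPM (counts scaled to library size by TMM) in RNA control and 9365 to 9684 CPM in RNA HF libraries. In footprints the sum was lower with HF, 15957 to 16924 CPM in control and 12379 to 12715 CPM in HF libraries. All 3 erythroid and both hepatic markers, the leukocyte markers Adgre1 and Cd3e, Krt8 (epithelial), Pecam1 (endothelial) and Rbfox3 (neural) were at 0 in all 12 libraries, while other members of the last 4 lists were detected. The leukocyte list summed to at most 5.89 CPM and the epithelial list to at most 3.79 CPM in any library. The 3 neural markers summed to 18.9 to 41.1 CPM in RNA control, 5.89 to 29.02 CPM in RNA HF, 57.6 to 84.6 CPM in RPF control and 25.1 to 56.9 CPM in RPF HF libraries. The 3 endothelial markers summed to at most 1.61 CPM in RNA control 5.28 to 15.7 CPM in RNA HF, at most 4.05 CPM in RPF control and 3.35 to 12.4 CPM in RPF HF libraries. The part of these markers in the results was not tested. Of the non-zero counts, 62.8% were even numbers (72.2% of those from 1 to 30), so in part of the table a read may have been entered as 2 counts.

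In total RNA 2 members were higher with HF (Mcl1 and Pmaip1), 5 were lower (Bcl2l1, Bak1, Bcl2l11, Bid and Bad) and 3 did not pass the test (Bcl2, Bax and Bbc3). The test was edgeR's quasi-likelihood test at a Benjamini-Hochberg adjusted p under 0.05 over all genes tested. TMM scaling makes each change, here and below, relative to the other genes of the same assay. A shift shared by most genes in RNA or in footprints would not show. Across the 9145 genes tested 43.7% were called, 22.2% higher and 21.4% lower. The members' median log2 fold change was -0.36 against -0.02 over all genes, and -0.56 over the 9 members without Pmaip1, of which 1 was higher and 5 lower. The HF and control groups did not overlap for 3 members above and 5 below, against 25.9% of all genes above, 25.5% below and 51.3% in either direction. In footprints 8 members were tested. Of these 3 were higher (Mcl1, Bax and Pmaip1), 2 were lower (Bcl2l1 and Bak1) and 3 did not pass (Bcl2, Bid and Bad), where 43.3% of the 8373 protein-coding genes tested were called, 22.4% higher and 20.9% lower. The footprint median was -0.13 for these 8 and -0.02 for all genes. HF libraries lay wholly above control for 3 of the 8 and wholly below for 2, against 25.2% of genes above, 26.2% below and 51.4% in either direction. Bcl2l11 and Bbc3 had too few footprints for the filter on low counts, while Pmaip1 passed it in both assays only through the HF libraries, where it is high, so its place in these counts supports nothing. Without Pmaip1 the 7 other members tested in footprints held 2 higher and 2 lower, with a median of -0.37. Since the members were chosen by name with earlier results known, the difference between their shares and these backgrounds was not tested.

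**Figure D1:**
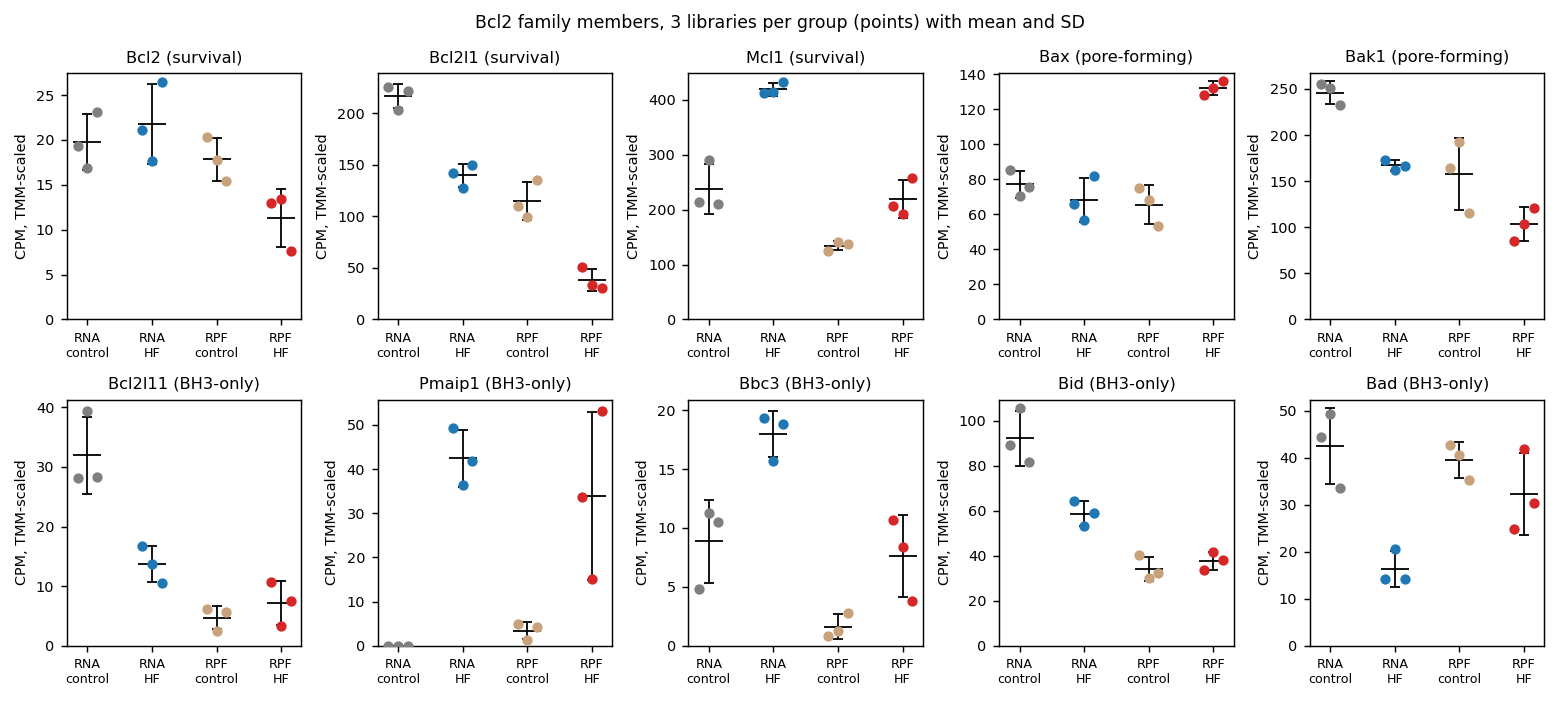
Level of each of the 10 members in the 12 libraries, in TMM-scaled CPM on linear axes from 0, with 1 point per library and bars for the mean and SD of each group of 3. Mcl1 is higher with HF in both assays, Bcl2l1 lower in both, and Bax is higher in footprints while its RNA groups overlap.

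**Figure D2:**
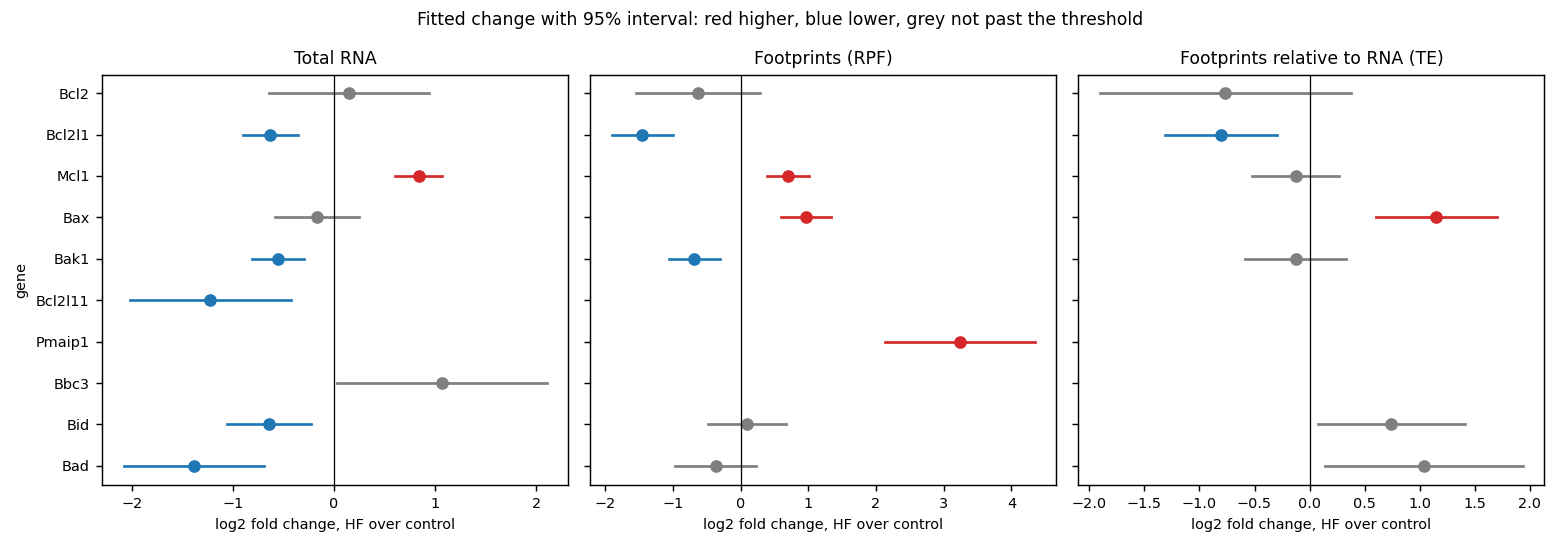
Log2 fold change of HF over control for each member in RNA, in footprints and in translational efficiency, with 95% confidence intervals from edgeR's quasi-likelihood fit; red is higher, blue lower and grey not past the threshold. Pmaip1 is left out of the RNA and efficiency panels because its control RNA was 0, and members not tested are blank. Its footprint value is shown although it passed the low-count filter only through the HF libraries.

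Mcl1 (Ensembl ENSMUSG00000038612, chr3:95656944-95663179), a short-lived survival protein that restrains BAK, rose in both assays. Its RNA was 213, 290 and 210 CPM in the 3 control libraries and 413, 414 and 433 CPM in the 3 HF libraries, with no overlap. The mean went from 238 ± 45.4 to 420 ± 11.7 CPM (SD, n = 3), a log2 fold change of 0.84 (SE 0.12, edgeR adjusted p = 1.4e-08), or 1.79-fold. Footprints were 124, 141 and 138 CPM in control and 207, 192 and 258 CPM in HF libraries, again without overlap, from a mean of 134 ± 8.72 to 219 ± 34.4 CPM, a log2 fold change of 0.70 (SE 0.15, edgeR adjusted p = 0.00035). Footprints relative to RNA, the translational efficiency (TE), is the interaction of assay and treatment in one fit over the 12 libraries. For Mcl1 its log2 change was -0.13 with a 95% interval of -0.52 to 0.27 (edgeR adjusted p = 0.74).

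Bcl2l1 (ENSMUSG00000007659, chr2:152758732-152833803), which encodes the long-lived survival protein BCL-XL, fell in both assays, and more in footprints. RNA levels of 225, 203 and 222 CPM in control became 142, 128 and 150 CPM with HF, with means of 217 ± 12.01 and 140 ± 11.3 CPM, 1.55-fold lower (log2 fold change -0.63, SE 0.14, edgeR adjusted p = 0.00013). Footprints went from 110, 99.3 and 135 CPM to 50.6, 33.5 and 30.3 CPM, with means of 115 ± 18.2 and 38.1 ± 10.9 CPM, 2.74-fold lower (log2 fold change -1.45, SE 0.22, edgeR adjusted p = 2.6e-06). The 3 HF libraries lay below every control library in both assays. Its TE change was -0.81 (SE 0.25, edgeR adjusted p = 0.028), and the call was lost when any of 5 libraries was left out: RNA control 2 (-0.78, adjusted p = 0.051), RNA HF 3 (-0.78, 0.062), RPF control 3 (-0.71, 0.075), RPF HF 2 (-0.74, 0.061) or RPF HF 3 (-0.70, 0.065). Cox4i2 and Gm32211 overlap the gene. Cox4i2 had 0 counts in all 12 libraries, and Gm32211 was not examined. How reads on overlapping genes were counted is not given. A count of 0 in an overlapping gene, here and below, does not show that no reads were shared.

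Bcl2 (ENSMUSG00000057329, chr1:106538176-106714290), the founding survival member, was present at low counts and did not pass any test. Its RNA was 19.3, 16.9 and 23.1 CPM in control and 21.1, 17.7 and 26.5 CPM with HF, and the groups overlapped (log2 fold change 0.15, 95% interval -0.64 to 0.94, edgeR adjusted p = 0.79). Footprints were 20.3, 17.8 and 15.5 CPM in control and 12.9, 13.4 and 7.58 CPM with HF, so the HF libraries were all lower, yet the interval of -1.54 to 0.28 includes 0 (edgeR adjusted p = 0.27). Its TE change was -0.77, with an interval of -1.91 to 0.37. Mir3473f and Gm37053 overlap Bcl2, and their counts were not examined.

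Bax (ENSMUSG00000003873, chr7:45461695-45466903), a pore former that is mostly cytosolic until activated, was higher in footprints while its RNA did not pass the test. RNA levels were 85.3, 70.5 and 75.6 CPM in control and 66.0, 57.0 and 81.8 CPM with HF, with overlap (log2 fold change -0.17, interval -0.59 to 0.25, edgeR adjusted p = 0.54). Footprints were 75.0, 68.0 and 53.4 CPM in control and 128, 132 and 137 CPM with HF. Every HF library exceeded every control library, and the mean went from 65.5 ± 11.03 to 132 ± 4.10 CPM, 1.96-fold (log2 fold change 0.97, SE 0.18, edgeR adjusted p = 6.9e-05). Its TE rose by 1.15 on the log2 scale (SE 0.27, edgeR adjusted p = 0.0036), or 2.22-fold, and stayed past the threshold in all 21 settings tried, from 1.02 to 1.29. Bax was the single member higher in TE among the 8 tested. Bcl2l11 and Bbc3 were not tested there, and without RPF HF 2, when Bcl2l11 could be tested, its TE change was 2.23 (edgeR adjusted p = 0.04), against 1.91 (0.14) with no filter. In the full footprint set no control library of Bcl2l11 or Bbc3 reached the filter's cutoff, against 1 HF library. A call that appears when such a gene passes the filter therefore supports nothing. Of the 8279 genes tested for TE, 13.4% were called, 5.95% higher and 7.49% lower. The members counted 1 higher, 2 lower (Bcl2l1 and Pmaip1, whose control RNA was 0) and 5 that did not pass. Without Pmaip1 they counted 1 higher and 1 lower of 7, with a median of -0.12 against 0.01 over all genes.

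Bak1 (ENSMUSG00000057789, chr17:27019812-27028627), the pore former resident in the outer mitochondrial membrane, was lower in RNA. Levels of 255, 251 and 232 CPM in control became 173, 162 and 166 CPM with HF, without overlap (log2 fold change -0.56, SE 0.13, edgeR adjusted p = 0.00027). Footprints were 164, 192 and 115 CPM in control and 85.0, 104 and 121 CPM with HF, and RPF HF 3 lay above RPF control 3. The footprint log2 fold change was -0.69 (SE 0.19, edgeR adjusted p = 0.0033), and without RPF control 2 it was -0.52 with an adjusted p of 0.051. Its TE change was -0.12 (interval -0.58 to 0.34, edgeR adjusted p = 0.79). The overlapping Ggnbp1 had 0 counts in all 12 libraries.

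**Figure D3:**
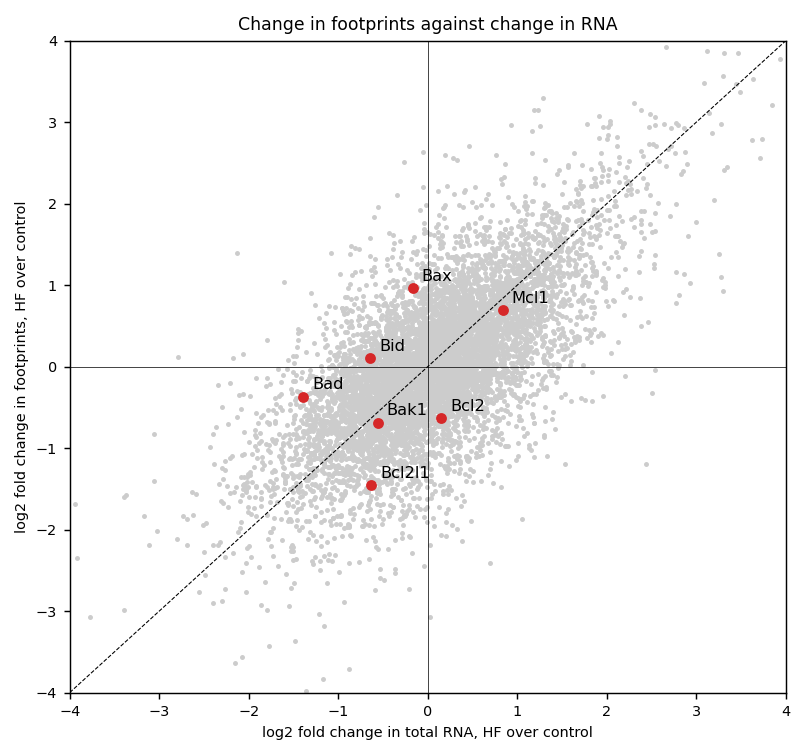
Log2 fold change in footprints against that in RNA for the 7921 genes tested in both, with 34 outside the axes, and the tested members labelled. Bax lies above the diagonal and Bcl2l1 below it, while Mcl1 and Bak1 lie near it; Pmaip1 is not shown.

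Pmaip1 (ENSMUSG00000024521, chr18:66458604-66465558), which encodes NOXA, a BH3-only protein that binds MCL1, went from no RNA count to a clear signal. The 3 RNA control libraries held 0 counts each, and RNA HF 1, 2 and 3 held 56, 37 and 71 counts, or 49.3, 36.3 and 41.8 CPM. Set against a floor of 6 counts over the control group (3 reads, each possibly entered as 2), the HF level was at least 20.6-fold higher, and this floor covers counting error only. Footprints numbered 12, 2 and 3 in control and 60, 9 and 28 in HF libraries, which is 4.87, 1.23 and 4.22 CPM against 33.8, 15.1 and 53.1 CPM. The HF footprints lay above control in every library, and by summed counts HF over control was 9.46 with a 95% counting interval of 5.61 to 16.9. That interval takes each count as 1 read and leaves out the spread between libraries. It is too narrow if a read was entered as 2 counts. No control library passed the low-count filter in either assay, so the filtered test was conditioned on the high group. With no filter the footprint log2 fold change was 3.22 (edgeR adjusted p = 6e-09), and with the filter it ran from 2.81 without RPF control 2 to 3.83 without RPF control 1, which holds 12 of the 17 control footprints. No TE value is given, because the control RNA was 0 in all 3 libraries.

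Bbc3 (ENSMUSG00000002083, chr7:16308398-16318334), which encodes PUMA, a BH3-only protein that binds all survival members, did not pass the test in RNA. Its RNA counts were 6, 8 and 10 in control and 22, 16 and 32 in HF libraries, or 4.83, 11.3 and 10.5 CPM against 19.4, 15.7 and 18.8 CPM. The HF libraries were all higher, with a log2 fold change of 1.07 (interval 0.03 to 2.11) and an edgeR adjusted p of 0.088. Footprints numbered 2, 2 and 2 in control and 19, 5 and 2 in HF libraries, too few for the filter; without a filter the log2 fold change was 2.49 (SE 0.99, edgeR adjusted p = 0.04). By summed counts, 6 against 26, HF over control was 7.18 with a 95% counting interval of 2.89 to 21.3. That interval leaves out the spread between libraries, and it is too narrow if a read was entered as 2 counts.

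Bcl2l11 (ENSMUSG00000027381, chr2:128126038-128162547), which encodes BIM, a BH3-only activator, had lower RNA. Levels of 28.2, 39.5 and 28.4 CPM in control became 16.7, 13.8 and 10.6 CPM with HF, with no overlap (log2 fold change -1.22, SE 0.40, edgeR adjusted p = 0.0097). Without RNA HF 3 the value was -1.02 with an adjusted p of 0.063. Footprint counts of 15, 4 and 4 in control and 19, 2 and 4 with HF summed to 23 and 25 and were not tested. Against the larger scaled depth of the control footprints that is a ratio of HF to control of 1.80, with a 95% counting interval of 0.981 to 3.32. That interval leaves out the spread between libraries, and it is too narrow if a read was entered as 2 counts. The overlapping Acoxl had 0 counts in all 12 libraries.

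Bid (ENSMUSG00000004446, chr6:120893119-120917062), the BH3-only link from death receptors through caspase 8, had lower RNA but no footprint change that passed. RNA went from 89.4, 106 and 81.9 CPM to 64.2, 53.1 and 58.9 CPM without overlap (log2 fold change -0.64, SE 0.21, edgeR adjusted p = 0.0092). Footprints were 40.1, 30.03 and 32.3 CPM in control and 33.8, 41.8 and 37.9 CPM with HF, and the groups overlapped (0.10, interval -0.48 to 0.68, edgeR adjusted p = 0.80). The TE change of 0.74 had an interval of 0.07 to 1.41 but did not pass (edgeR adjusted p = 0.14). Gm17812 overlaps Bid, and its counts were not examined.

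Bad (ENSMUSG00000024959, chr19:6941861-6951905), a BH3-only protein that growth-factor kinases phosphorylate and 14-3-3 proteins hold in the cytosol, had the lowest HF to control ratio in RNA of the 10 members. RNA levels of 44.3, 49.3 and 33.6 CPM in control became 14.1, 20.6 and 14.1 CPM with HF, 2.62-fold lower without overlap (log2 fold change -1.39, SE 0.35, edgeR adjusted p = 0.00073). Footprints were 42.6, 40.4 and 35.1 CPM in control and 24.8, 41.8 and 30.3 CPM with HF, overlapping (-0.37, interval -0.96 to 0.22, edgeR adjusted p = 0.32). The TE change of 1.04 (interval 0.14 to 1.94) did not pass (edgeR adjusted p = 0.12). Gpr137, which overlaps Bad, held 131 RNA and 48 footprint counts over the 12 libraries. Gm19053 overlaps Bad as well, and its counts were not examined. Whether reads were counted by strand is not given in the sources used here.

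Ratios of group mean CPM, footprints over RNA, place the members side by side between conditions. They went from 0.849 to 1.94 for Bax, 0.929 to 1.98 for Bad and 0.370 to 0.644 for Bid, and from 0.530 to 0.273 for Bcl2l1 and 0.902 to 0.519 for Bcl2. On few footprints it was 0.147 and 0.527 for Bcl2l11 and 0.182 and 0.424 for Bbc3. Mcl1 (0.565 and 0.521) and Bak1 (0.639 and 0.618) had ratios that differed little between control and HF. Within single libraries the count ratio of Mcl1 to Bcl2l1 was 1.11 ± 0.279 in RNA control and 3.01 ± 0.196 in RNA HF (SD, n = 3). In footprints it was 1.19 ± 0.206 in control and 4.08, 5.75 and 8.50 in the 3 HF libraries, all above control. The Bax to Bcl2l1 ratio went from 0.356 ± 0.0201 to 0.486 ± 0.0524 in RNA and from 0.587 ± 0.166 to 3.66 ± 1.01 in footprints. The Bak1 to Bax footprint ratio went from 2.39 ± 0.379 to 0.779 ± 0.113. These ratios are not corrected for gene length, so only their change with treatment is read, and no test was made on them. In bulk libraries, fewer cells of a kind and less RNA per cell cannot be told apart.

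**Figure D4:**
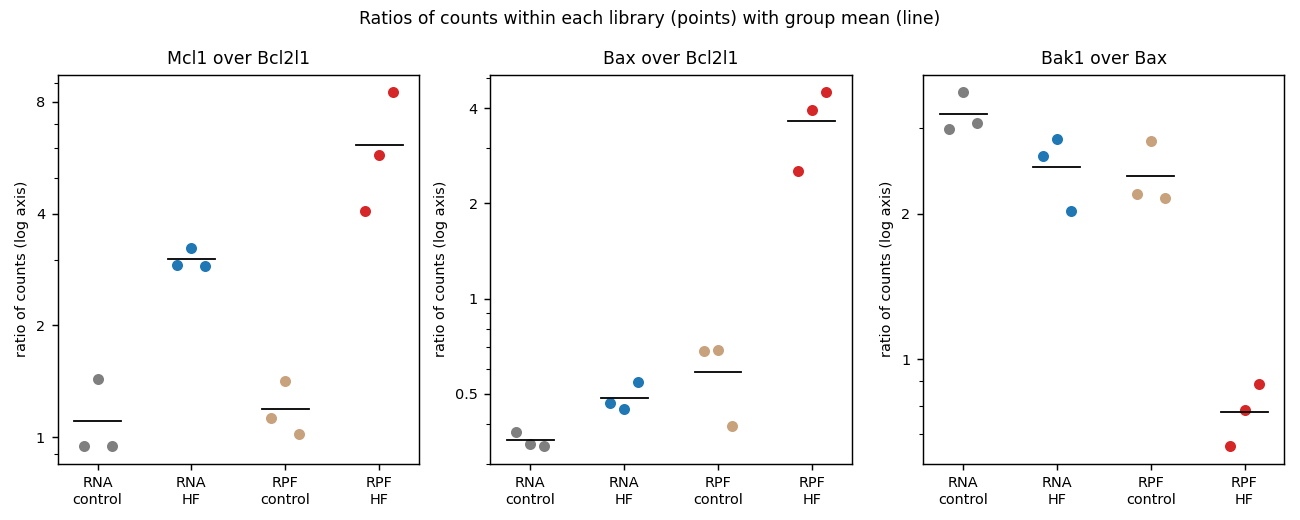
Within-library count ratios of 3 member pairs on a log axis, 1 point per library with the group mean. The footprint ratios of Mcl1 to Bcl2l1 and of Bax to Bcl2l1 are higher in every HF library than in any control library.

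The 3 members with the highest mean counts were compared with all other genes by Pearson correlation of log2 CPM over the 12 libraries, each assay centred on its mean. The closest genes to Mcl1 were Kdm5b (r = 0.975), Sik2 (0.972) and Pspc1 (0.971). Among the closest to Bcl2l1 were Erbb2 (0.982) and Ywhae (0.981), and those to Bak1 were Hnrnpa0 (0.941), Bahcc1 (0.929) and Mta2 (0.928). These points share treatment and library depth, and the values describe likeness only.

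Over all genes tested 22.2% were higher and 21.4% lower in RNA, and 22.4% and 20.9% in footprints. Of the 16 other BCL-2 family and BH3-like genes 5 were tested in RNA, of which 1 was higher and none lower, and 5 in footprints, of which 2 were higher and 1 lower. Bcl2l13, a mitochondrial member linked to mitophagy, was higher in RNA (log2 fold change 0.63), footprints (1.58, edgeR adjusted p = 3e-07) and TE (0.96). Mtch2, placed in this list as the outer membrane receptor for truncated BID, was higher in footprints (0.67) and TE (0.72). Bnip3l, a mitophagy receptor, was lower in footprints (-1.15, edgeR adjusted p = 0.025), a call lost without RPF control 1 (-1.06, 0.12) or RPF HF 3 (-1.01, 0.054). In the list of mitochondrial release factors, the apoptosome and caspases 19 of 23 genes were tested in RNA, with 3 higher and 5 lower. In footprints 17 were tested, with 3 higher and 4 lower. Casp6, an executioner caspase, was lower in RNA (-2.07, from 44 to 14 counts, edgeR adjusted p = 0.0074) and in footprints (-2.52, edgeR adjusted p = 0.00033). Its RNA call was lost without RNA control 1 (-1.93, 0.069) or RNA HF 1 (-1.52, 0.079). Casp2, an initiator caspase, was higher in RNA (1.69) and footprints (1.73), and Birc5, an inhibitor of apoptosis that also serves cell division, was higher in footprints (0.96). Apaf1, the scaffold of the apoptosome, was higher in RNA (25.4 ± 5.61 to 46.9 ± 4.47 CPM, log2 fold change 0.88, edgeR adjusted p = 0.013) and lower in footprints (-0.97). Its RNA call was lost without RNA control 3 (0.70, adjusted p = 0.077), its TE fell by 1.85 (edgeR adjusted p = 0.0014), and the gene overlaps Ikbip. In TE 17 genes of this list were tested, with 2 higher and 2 lower, against 5.95% and 7.49% of all genes. Birc6 was the other lower gene (-0.85). Htra2 was higher in TE (1.54, edgeR adjusted p = 1.6e-05), with RNA lower (-0.84) and footprints higher (0.69). Birc5 was also higher in TE (0.69, edgeR adjusted p = 0.013), a call lost in 3 settings.

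**Figure D5:**
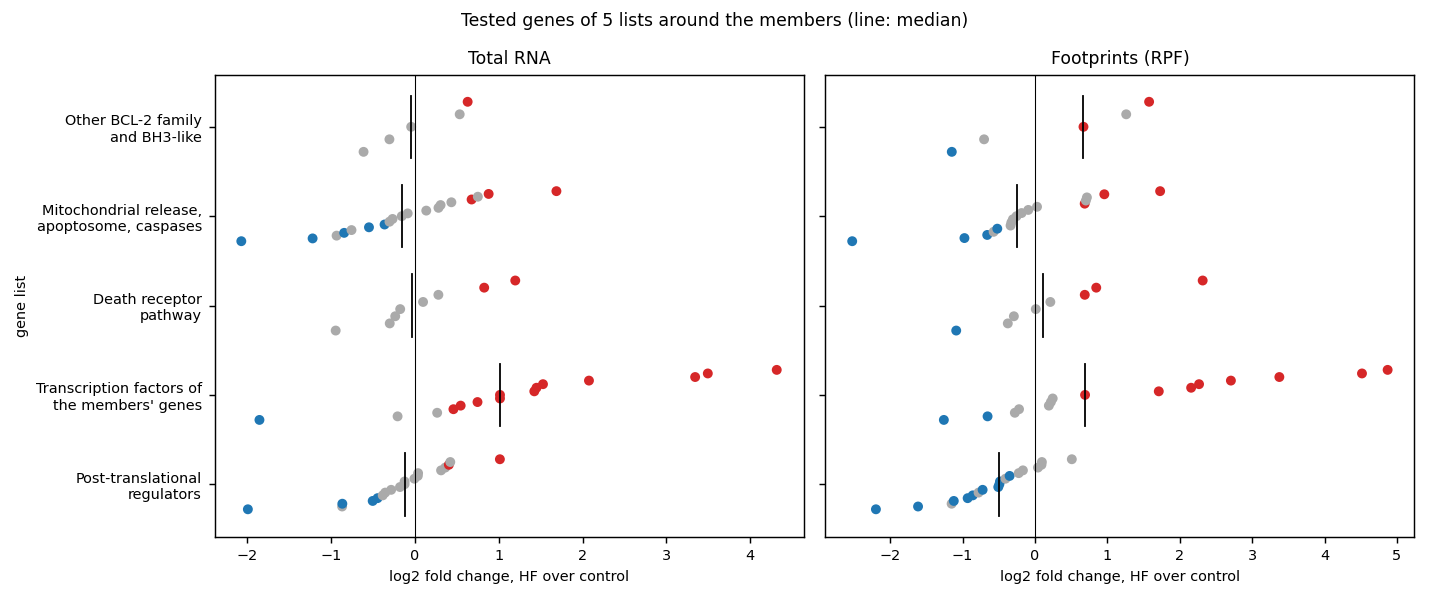
Log2 fold change of HF over control for the tested genes of 5 lists of related genes in RNA and footprints, 1 point per gene (red higher, blue lower, grey not past the threshold) and a line at each list's median. The transcription factor list, which also holds Mdm2 and Trib3, has the highest RNA median, 1.01. The post-translational regulators have the lowest footprint median, -0.49.

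Of 9 death receptor pathway genes 8 were tested, with 2 higher and none lower in RNA, and 3 higher and 1 lower in footprints. Tnfrsf12a, the receptor for the cytokine TWEAK, was higher in RNA (1.20), footprints (2.32) and TE (1.13), and Tnfrsf10b, the TRAIL death receptor, was higher in RNA (0.83) and footprints (0.85). Tradd, an adaptor of the TNF receptor, was lower in footprints (-1.09, edgeR adjusted p = 0.024), a call lost without RPF control 2 (-1.09, 0.066), RPF control 3 (-1.01, 0.065), RPF HF 1 (-1.02, 0.088) or RPF HF 2 (-0.83, 0.094). A list of 16 genes held transcription factors known to act on the members' genes, along with Mdm2 and Trib3, whose products are not transcription factors. Of the 16, 15 were tested, with 12 higher and 1 lower in RNA and 8 higher and 2 lower in footprints. Mdm2 and Trib3 were among the 12. The RNA median of this list was 1.01 against -0.02 over all genes. Atf3 (4.32 in RNA, 4.52 in footprints), Trib3 (3.49 and 3.38) and Ddit3 (3.34 and 4.87) rose in both assays, and Atf4 rose by 0.46 in RNA, 2.71 in footprints and 2.26 in TE. Trp53, which encodes p53, fell by 1.85 in RNA and by 1.26 in footprints. Of 22 post-translational regulators 19 were tested, with 2 higher and 4 lower in RNA, and none higher and 10 lower in footprints. Akt1, the kinase that phosphorylates BAD, fell by 1.99 in RNA and by 2.20 in footprints, and Ywhag, a 14-3-3 protein, fell by 1.12 in footprints. Usp9x, a deubiquitinase that stabilizes MCL1, was higher in RNA (1.01) but lower in footprints (-0.48, edgeR adjusted p = 0.00016), and its TE fell by 1.49 (edgeR adjusted p = 9.7e-07). The shares over all genes tested were 22.2% higher and 21.4% lower in RNA, and 22.4% and 20.9% in footprints. These lists were chosen with earlier results of these data known, and nothing particular to them is read from the counts.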

How the data were processed

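Per the submitters' processing notes, Bowtie, HISAT2 and HTSeq were used with the GRCm38 genome; their versions, order and settings, the counted feature and the use of strand were not stated in the labels. The authors deposited whole-number counts per Ensembl gene for each library, and these counts were analysed as deposited. Gene symbols were matched by Ensembl gene identifier. Gene types, coordinates and promoter windows came from RefSeq on GRCm38.p6. Libraries were grouped by the labels. RNA, footprints (protein-coding genes) and TE (the assay by treatment interaction over 12 libraries) were each fitted with edgeR 4.0.16 in R 4.3.3, with TMM factors, a filter of minimum count 10, the quasi-likelihood test and Benjamini-Hochberg adjustment at 0.05. SE is the absolute log2 fold change over the square root of F. Alternatives were DESeq2 1.42.0, other scalings and filters, the replicate block and leaving out each library. The fits were tested on simulated data. All 10 members are named; of each list, up to 4 called genes with the largest change, plus Ddit3, Atf4 and Trp53, were eligible. The members and lists were chosen with earlier results of these data known. Of the 3 genes closest to each of 3 members by correlation, 1 is not reported here.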

Additional observations from a re-analysis of the deposited data

How the results depend on the processing

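Leaving out 1 library at a time gave 2 to 2 members higher and 4 to 5 lower in RNA, 3 to 4 higher (the fourth is Bbc3, without RPF control 3 or RPF HF 3) and 1 to 2 lower in footprints, and 1 to 2 higher (the second is Bcl2l11, without RPF HF 2) and 1 to 2 lower in TE, Pmaip1 included; over all genes the counts were 1757 to 1964 higher and 1604 to 1856 lower in RNA, 1487 to 1862 and 1404 to 1727 in footprints, and 330 to 478 and 478 to 614 in TE. In the full footprint set neither Bbc3 nor Bcl2l11 had a control library over the filter's cutoff, so their added calls support nothing. With a filter of minimum count 30, 1 member was lower in TE. Leaving out 1 library turned the sign of 3 values that passed no test either way: Bcl2 RNA ranged from -0.011 to 0.28 (below 0 without RNA HF 3), Bid footprints from -0.0055 to 0.24 (below 0 without RPF control 2) and Bak1 TE from -0.27 to 0.055 (above 0 without RPF control 2, 0.026, or RPF HF 1); the cause was not tested. With the replicate block the members' counts were 2 higher and 5 lower in RNA, 3 and 2 in footprints and 1 and 2 in TE. The correlations of same-numbered libraries lay near 0, so no shared replicate effect was seen. Whether same-numbered libraries come from the same culture cannot be told from these correlations. Upper-quartile scaling moved the footprint median of all genes from -0.02 to -0.10. Depth limits Bcl2, Bbc3, Bcl2l11 and Pmaip1 the most, and halving the counts for possible double entry, a setting chosen after seeing the data, changed no member call.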

Other observations

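Of the 16 genes in the list of other BCL-2 family and BH3-like genes, Mtch2 included, 7 were at 0 in all 12 libraries. They were Bcl2a1a, Bcl2a1b, Bcl2a1d, Bcl2l10, Bmf, Bcl2l14 and Bcl2l15. Bcl2l2, which encodes the survival protein BCL-W, held 48 RNA counts in control and 98 in HF libraries. Its RNA change did not pass the test (log2 fold change 0.53, edgeR adjusted p = 0.31). Its footprints summed to 8 counts in control and 0 in HF libraries, too few for the filter, and were not tested. Diablo, whose product releases caspases from their inhibitors, held 26 RNA counts in control and 34 in HF libraries and 0 footprints in all 6 footprint libraries. Diablo overlaps B3gnt4 and Mir7647, and how reads on overlapping genes were counted is not given. Its low counts are therefore not read as low expression. These genes were picked after their values were seen.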
